A study of Mus musculus with 33 samples.

Results

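The comparison described here sets low doses of paeonol, 1 and 10 µg/ml, against lipopolysaccharide (LPS) alone in RAW264.7 cells, an established mouse macrophage-like line. It was defined by the sample titles and rests on 9 of the 33 arrays of the series: 3 of LPS alone, 3 of LPS with 1 µg/ml paeonol and 3 of LPS with 10 µg/ml paeonol. The LPS concentration was 1 µg/ml and the exposure 6 h in all 9, so every array compared comes from LPS-stimulated cells. The 3 vehicle arrays, of cells given 0.1% DMSO and no LPS, enter no comparison below and are shown as a level to look back to. They and the arrays of the other treatments were normalized and fitted together with the 9, 30 arrays in all, so they contribute to the standard errors and p-values. The arrays with 100 µg/ml paeonol were not used. The text on the study's design calls the replicates biological, and per the file headers the arrays of one replicate number were scanned on the same day, so each paeonol array was set against the LPS array of its number. All results are for 1 cell line and 1 time.

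Paeonol is a phenolic ketone of the root bark of the tree peony. LPS, from the outer membrane of Gram-negative bacteria, binds the receptor complex of TLR4 and MD-2 on macrophages. The signal runs through the adaptor MyD88 to NF-κB, the MAP kinases and AP-1, and through the adaptor TRIF to interferon regulatory factors and the interferon-inducible genes. A compound that acts on this response could in principle change the sensors, the transcription factors, the secreted mediators or the enzymes of metabolism and protein turnover, and the genes are ordered below by those roles.

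The array carries 33012 gene probes, of which 19166 were tested. A probe was tested if its signal was at least 3 times its noise on at least 3 of the 30 arrays fitted, and "detected" below means that ratio on the array in question. Only 317 probes could be given a gene name, and 181 of these were among the tested. No probe could be named for any of the 17 inflammatory mediators listed, Tnf, Il1b, Il6 and Nos2 among them, nor for any of the 7 targets of the transcription factor Nrf2 listed. Of 10 macrophage markers, Cebpb could be found, and none of the T cell, B cell, fibroblast, epithelial or neutrophil markers, so the label of the cells could be checked on 1 gene alone. Values are log2 of the normalized signal. An array measures RNA of a whole culture, in which fewer cells of a kind and less RNA per cell cannot be told apart.

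Among the 9 arrays, 42.3% to 48.8% of gene probes were detected. Paeonol 10 replicate 3 stood apart, with 2011 quality-flagged probes against a median of 309, and with 352 probes of zero signal. Where it lacks a value, the result at 10 µg/ml rests on the other arrays of that dose, which is not said for every probe below. The control spots separated the 33 arrays into 2 sets: LPS replicates 2 and 3 lie in the set of 10 arrays, and LPS replicate 1 with all 6 paeonol arrays in the set of 23. So 1 of the 3 LPS arrays shares a set with the paeonol arrays, and its part in the results is given by the values from the set of 23 alone. The 3 arrays with 100 µg/ml paeonol also lie in that set and were left out of those fits. Below, "within the set of 23 arrays" means the arrays of the set that remain.

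At neither dose did any gene pass the test. Among named genes at the lower dose, the nucleolar GTPase Gnl2, the mitochondrial assembly factor Coa3 and the Rag GTPase Rraga had levels 0.37 to 0.48 above LPS alone on the log2 scale. The signalosome subunit Cops3, the galectin Lgals1 and the leukocyte transcript Lst1 had levels 0.34 to 0.60 below it. For these 6 genes the differences at the higher dose were 0.19 to 0.26 in size. The 6 were picked for their small p at 1 µg/ml, so the doses are not compared on equal terms. The sizes depend on the scaling: with each array scaled to a common median, Gnl2, Coa3 and Rraga differed by 0.22, 0.20 and 0.33 at 1 µg/ml and by 0.06, 0.03 and 0.04 at 10 µg/ml. Several probes without a gene name had a smaller p and larger differences, of 2-fold and more, and are described last. The interferon-inducible and tripartite motif genes differed from LPS alone by no more than 0.30 in either direction.

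The question of the first comparison is whether 1 µg/ml paeonol changed the LPS-stimulated transcriptome. Limma called 0 of 19166 probes at an adjusted p under 0.05, which is 0% of those tested, and the smallest adjusted p was 0.188. Without adjustment 2022 probes had a p under 0.05, of which 1182 were higher and 840 lower than with LPS alone (6.17% and 4.38% of the tested probes). That split depends on the scaling: with each array scaled to a common median in place of quantile normalization, 475 were higher and 1047 lower, and the median of all probes was -0.07 at 1 µg/ml and -0.11 at 10 µg/ml. Of the 181 named probes, 17 were higher and 10 lower at that unadjusted p. The values of the 3 paeonol arrays lay wholly above those of the 3 LPS arrays for 7.04% of all tested probes and wholly below for 6.35%. Among the named probes these were 11 and 13 of 181. The median size of a difference was 0.226 on the log2 scale, against a median standard error of 0.292.

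At 10 µg/ml limma again called 0 probes (0%), with a smallest adjusted p of 0.645. At an unadjusted p under 0.05 there were 805 probes, 348 higher and 457 lower (1.82% and 2.38%), and of the named probes 5 were higher and 7 lower. The groups did not overlap for 3.65% of tested probes that were higher and 4.61% that were lower, and for 8 and 11 named probes. The median size of a difference was 0.161, below that at 1 µg/ml. With both doses pooled limma called 0 probes (0%), with a smallest adjusted p of 0.304. At an unadjusted p under 0.05, 781 probes were higher and 715 lower (4.07% and 3.73%), and 15 and 10 of the named; with median scaling 26.9% in place of 52.2% of those at that p were higher. When limma weighted each array by its estimated quality it called 151 probes at 1 µg/ml and 71 pooled, none of them named, with the lowest weight, 0.351, for paeonol 1 replicate 2 and the highest, 1.90, for LPS replicate 1. The 2 doses share the LPS arrays, so a high or low LPS array moves both in the same way.

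**Figure D1:**
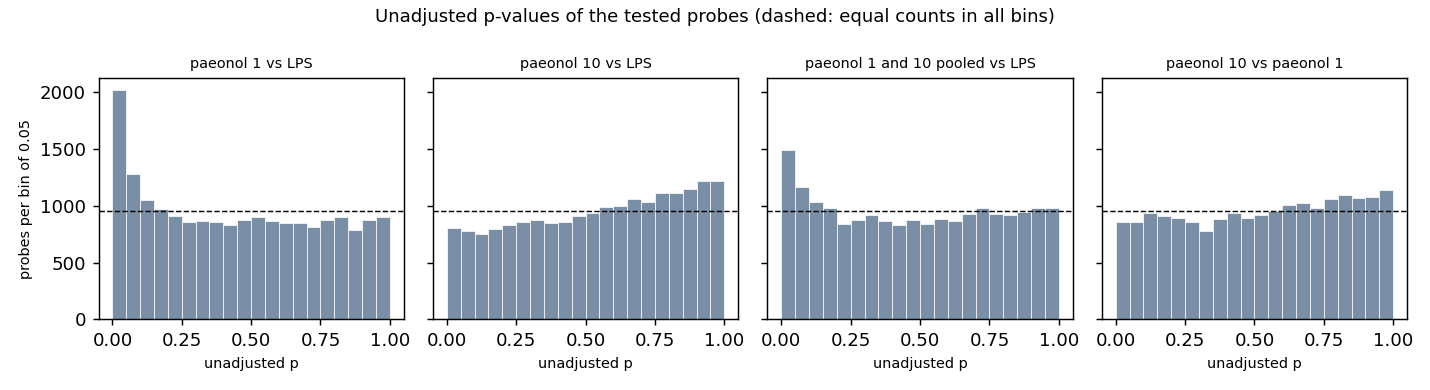
Number of tested probes (vertical axis) by unadjusted limma p (horizontal axis, bins of 0.05) in the 4 comparisons; the dashed line marks the 958.3 probes each bin would hold if all bins were equal. The lowest bin holds 2022 probes at 1 µg/ml, 805 at 10 µg/ml, 1496 with the doses pooled and 856 between the doses, so it stands above the line at 1 µg/ml and pooled and below it in the other two.

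The lowest bin of each panel is the count of probes at an unadjusted p under 0.05, so the plot repeats those counts. At 10 µg/ml the lowest bin held 805 probes and the last bin, from 0.95 up, 1217. With the array set as a further block in the fit of all 30 arrays, 1574 probes had an unadjusted p under 0.05 at 1 µg/ml, 666 at 10 µg/ml and 1113 pooled. Within the set of 23 arrays the numbers were 455, 289 and 301. That fit keeps LPS replicate 1 as the only LPS array, assumes that it varies like the other groups and has larger standard errors. The part of the array set in the lower counts was not tested. Limma called 0 probes in each of these fits.

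Gnl2 (probe 737672), a GTPase of the nucleolus needed to build the large ribosomal subunit, had the smallest p of the named genes at 1 µg/ml. Its log2 level was 16.99, 16.51 and 16.74 on LPS arrays 1 to 3, 17.30, 17.06 and 17.02 with 1 µg/ml paeonol, and 17.22, 16.74 and 16.96 with 10 µg/ml. Every paeonol array lay above the LPS array of its day, and at 1 µg/ml the groups did not overlap. The difference from LPS alone was 0.38 ± 0.110 (SE, n = 3 per group, limma adjusted p = 0.264) at 1 µg/ml and 0.22 ± 0.110 at 10 µg/ml, neither called. Within the set of 23 arrays it was 0.38 ± 0.189 at 1 µg/ml.

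Coa3 (probe 644434), an assembly factor of cytochrome c oxidase in the inner mitochondrial membrane, was detected on all 9 arrays. It measured 17.40, 17.20 and 17.48 with LPS alone, 17.64, 17.77 and 17.80 with 1 µg/ml paeonol, and 17.66, 17.48 and 17.55 with 10 µg/ml. Again all 6 paeonol arrays lay above their LPS array, and the groups were separate at 1 µg/ml. The vehicle arrays were higher still, at 17.92, 17.79 and 18.10. The difference was 0.37 ± 0.112 at 1 µg/ml (limma adjusted p = 0.270) and 0.20 ± 0.112 at 10 µg/ml, not called, and the first was 0.34 ± 0.182 within the set of 23 arrays.

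Rraga (probe 341113) encodes a Rag GTPase that brings the mTOR complex to the lysosome when amino acids are present. Its level was 16.50, 16.61 and 16.85 with LPS alone, 17.19, 17.02 and 17.19 with 1 µg/ml and 16.90, 16.83 and 16.87 with 10 µg/ml. The lowest array at 1 µg/ml lay above the highest LPS array, while at 10 µg/ml the groups overlapped. The difference was 0.48 ± 0.149 (limma adjusted p = 0.302) and 0.21 ± 0.149, not called, and within the set of 23 arrays 0.61 ± 0.242 and 0.35 ± 0.242.

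Jun (probe 534427), the component of AP-1 that LPS signalling activates through the JNK kinases, measured 14.66, 15.04 and 14.27 with LPS alone. It measured 15.25, 15.08 and 14.93 with 1 µg/ml paeonol and 14.95, 14.98 and 14.68 with 10 µg/ml. The paeonol array was the higher one in 5 of 6 same-day pairs, and the groups overlapped at both doses because LPS replicate 2 was as high as the paeonol arrays. The difference was 0.43 ± 0.145 (limma adjusted p = 0.330) and 0.21 ± 0.145, not called. H2bc13, a replication-dependent H2B histone, differed by 0.51 ± 0.169 at 1 µg/ml and 0.15 ± 0.169 at 10 µg/ml, and within the set of 23 arrays by 0.21 ± 0.206 and -0.15 ± 0.206.

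Rtl8c and Prr18 led the named genes of the pooled comparison with higher levels. Rtl8c (probe 387041), a gene derived from a retrotransposon Gag sequence, measured 9.65, 9.75 and 9.21 with LPS alone, 10.72, 10.20 and 9.75 with 1 µg/ml and 10.31, 10.26 and 10.33 with 10 µg/ml. The groups overlapped at neither dose. The probe was detected on 2 of 3 arrays for each of the doses and on 3 of 3 with LPS alone. The differences were 0.69 ± 0.258 and 0.76 ± 0.258, and 0.72 ± 0.223 pooled (limma adjusted p = 0.434), not called. Prr18 differed by 0.63 ± 0.221 at 1 µg/ml and 0.63 ± 0.221 at 10 µg/ml on probe 632639, with the paeonol array higher in 6 of 6 pairs. Its other detected probe, 515398, gave 0.22 ± 0.247 and 0.19 ± 0.247, and probe 305901, not detected on any of the 9 arrays, gave -0.28 and 0.05, so the probes of this gene disagree.

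Of the genes with lower levels, Cops3 (probe 725563) was the most even. It encodes a subunit of the COP9 signalosome, which takes the ubiquitin-like protein NEDD8 off cullin ubiquitin ligases. Its level was 15.54, 15.67 and 15.60 with LPS alone, 15.14, 15.26 and 15.40 with 1 µg/ml paeonol and 15.30, 15.47 and 15.40 with 10 µg/ml. All 6 paeonol arrays lay below all 3 LPS arrays. The differences were -0.34 ± 0.103 (limma adjusted p = 0.286), -0.21 ± 0.103 and, pooled, -0.27 ± 0.0888 (limma adjusted p = 0.434), not called. Within the set of 23 arrays they were -0.30 ± 0.200 and -0.18 ± 0.200.

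Lgals1 (probe 811401), the secreted β-galactoside-binding lectin galectin-1, was among the brightest named probes. It measured 18.20, 18.52 and 17.81 with LPS alone, 17.71, 18.09 and 17.50 with 1 µg/ml and 17.70, 18.40 and 17.65 with 10 µg/ml. The groups overlapped, since the spread between days was as large as the difference, but the paeonol array was the lower one in 6 of 6 pairs. The differences were -0.41 ± 0.139 (limma adjusted p = 0.324) and -0.26 ± 0.139, not called, and within the set of 23 arrays -0.55 ± 0.228 and -0.40 ± 0.228.

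Lst1 (probe 534936), a leukocyte-specific transcript of the major histocompatibility complex, measured 14.45, 15.20 and 15.15 with LPS alone and 14.27, 14.30 and 14.42 with 1 µg/ml paeonol. At 10 µg/ml it measured 14.47 and 15.04 on replicates 1 and 2, and replicate 3 is missing. The difference at 1 µg/ml was -0.60 ± 0.176 (limma adjusted p = 0.264) and at 10 µg/ml -0.19 ± 0.199 from 2 arrays, not called. LPS replicate 1, in the array set of the paeonol arrays, lay within 0.2 of each of the 3 arrays at 1 µg/ml, and within that set the difference was -0.34 ± 0.275 at 1 µg/ml and 0.12 ± 0.282 at 10 µg/ml.

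**Figure D2:**
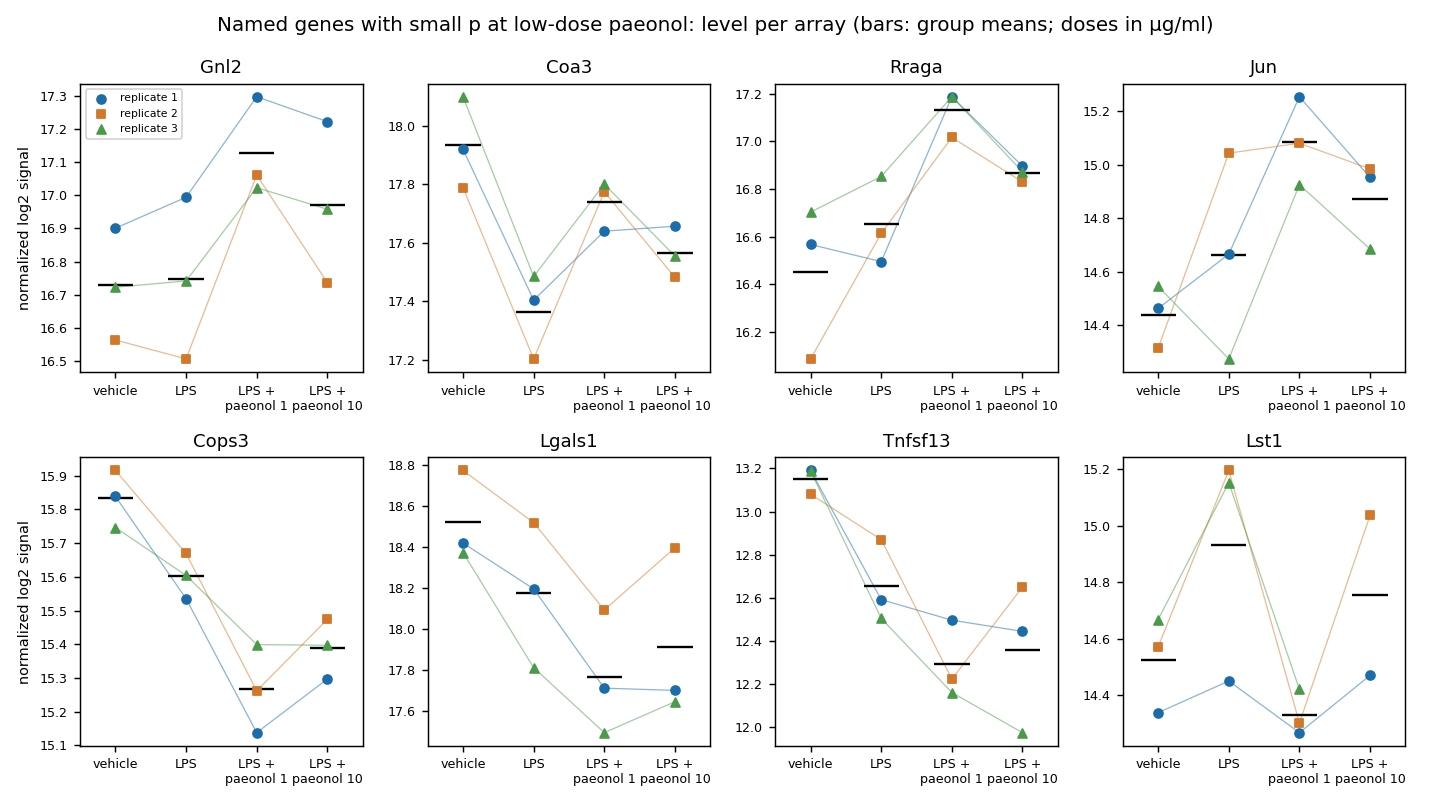
Normalized log2 signal (vertical axes, separate scale for each gene) of 8 named genes in vehicle, LPS, LPS with 1 µg/ml paeonol and LPS with 10 µg/ml paeonol; points are arrays, lines join arrays of 1 replicate number and black bars are group means. Gnl2, Coa3 and Rraga lie higher at 1 µg/ml than with LPS alone, Cops3 and Tnfsf13 lower, and for 6 of the 8, all but Jun and Lst1, every paeonol array lies on the same side of the LPS array of its day.

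The plot of the 8 genes by array shows how the changes compare with the spread between replicates. In every panel the distance between the LPS and 1 µg/ml means is less than 1 on the log2 scale, and in the panels of Gnl2, Jun, Lgals1 and Lst1 the 3 LPS arrays spread over more than that distance. For Gnl2, Coa3, Rraga and Jun the mean at 10 µg/ml lay between that of LPS alone and that of 1 µg/ml. These genes have small p at 1 µg/ml and were picked for it, so this order is not independent of the choice.

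Across all probes with a value on every array, 1249 of 17924 (6.97%) were higher in all 6 same-day pairs and 1053 (5.87%) lower in all 6. Of the 163 such named probes, 16 were higher and 11 lower in all 6. The pairs of both doses share their LPS array, so the 6 are not independent. When all 6 paeonol arrays are set against all 3 LPS arrays, 1.28% of the tested probes lay wholly above and 1.65% wholly below. The named ones, picked out after their values were seen, were 2 above, Rtl8c and Sox11, and 5 below, Hba-a1, Gnas, Wdfy1, Cops3 and Pfdn5. Gnas, the stimulatory G protein α subunit that links receptors to adenylyl cyclase, differed by -0.51 ± 0.410 at 1 µg/ml and -0.62 ± 0.410 at 10 µg/ml. Pfdn5, a subunit of the prefoldin chaperone, differed by -0.30 ± 0.142 and, from 2 arrays at 10 µg/ml, by -0.30 ± 0.160. Sox11, a transcription factor of neural development, was detected on 1 of the 6 paeonol arrays, as was Hba-a1, α-globin.

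Of the 12 listed genes of innate sensing and signalling, 5 were tested, and limma called none. Their median difference was -0.36 at 1 µg/ml and -0.11 at 10 µg/ml, where the median of all tested probes was 0.02 and -0.01. Nlrp3, Stat5a and Wdfy1 had also been picked earlier on these same LPS arrays as higher with LPS. The direction of these medians is therefore not independent evidence. Tnfsf13 (probe 459869), the TNF-family ligand APRIL that supports B cells, measured 12.59, 12.87 and 12.51 with LPS alone, 12.50, 12.22 and 12.16 with 1 µg/ml and 12.45, 12.65 and 11.98 with 10 µg/ml. The paeonol array was lower in 6 of 6 pairs, and the groups did not overlap at 1 µg/ml. The differences were -0.36 ± 0.144 (limma adjusted p = 0.390) and -0.30 ± 0.144, not called, and within the set of 23 arrays -0.21 ± 0.251 and -0.14 ± 0.251.

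Wdfy1 (probe 710465), an adaptor that helps to bring TRIF to TLR3 and TLR4, measured 12.83, 13.64 and 13.35 with LPS alone. It measured 12.65, 12.30 and 12.82 with 1 µg/ml paeonol and 12.32, 12.77 and 12.59 with 10 µg/ml. All 6 paeonol arrays lay below all LPS arrays, LPS replicate 1 being the nearest, and all lay above the 3 vehicle arrays, at 11.71, 12.10 and 11.44. The differences of -0.68 ± 0.483 and -0.71 ± 0.483 were not called (limma adjusted p = 0.683 at 1 µg/ml). Within the set of 23 arrays they were -0.71 ± 0.817 and -0.74 ± 0.817, and without paeonol 1 replicate 2, the lowest of the arrays at that dose, the first was -0.35.

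Tlr7, the endosomal receptor for single-stranded RNA, measured 14.08, 15.36 and 14.92 with LPS alone, 13.71, 13.80 and 14.73 with 1 µg/ml, and 14.16 and 15.13 with 10 µg/ml, replicate 3 missing. It differed by -0.71 ± 0.308 at 1 µg/ml (limma adjusted p = 0.429) and -0.06 ± 0.348 at 10 µg/ml, not called. The inflammasome sensor Nlrp3 differed by -0.22 ± 0.415 and -0.11 ± 0.415, and the signal transducer Stat5a by -0.13 ± 0.393 and -0.01 ± 0.393. For these 3 genes the intervals are wide: that of Nlrp3 at 1 µg/ml ran from -1.09 to 0.65.

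**Figure D3:**
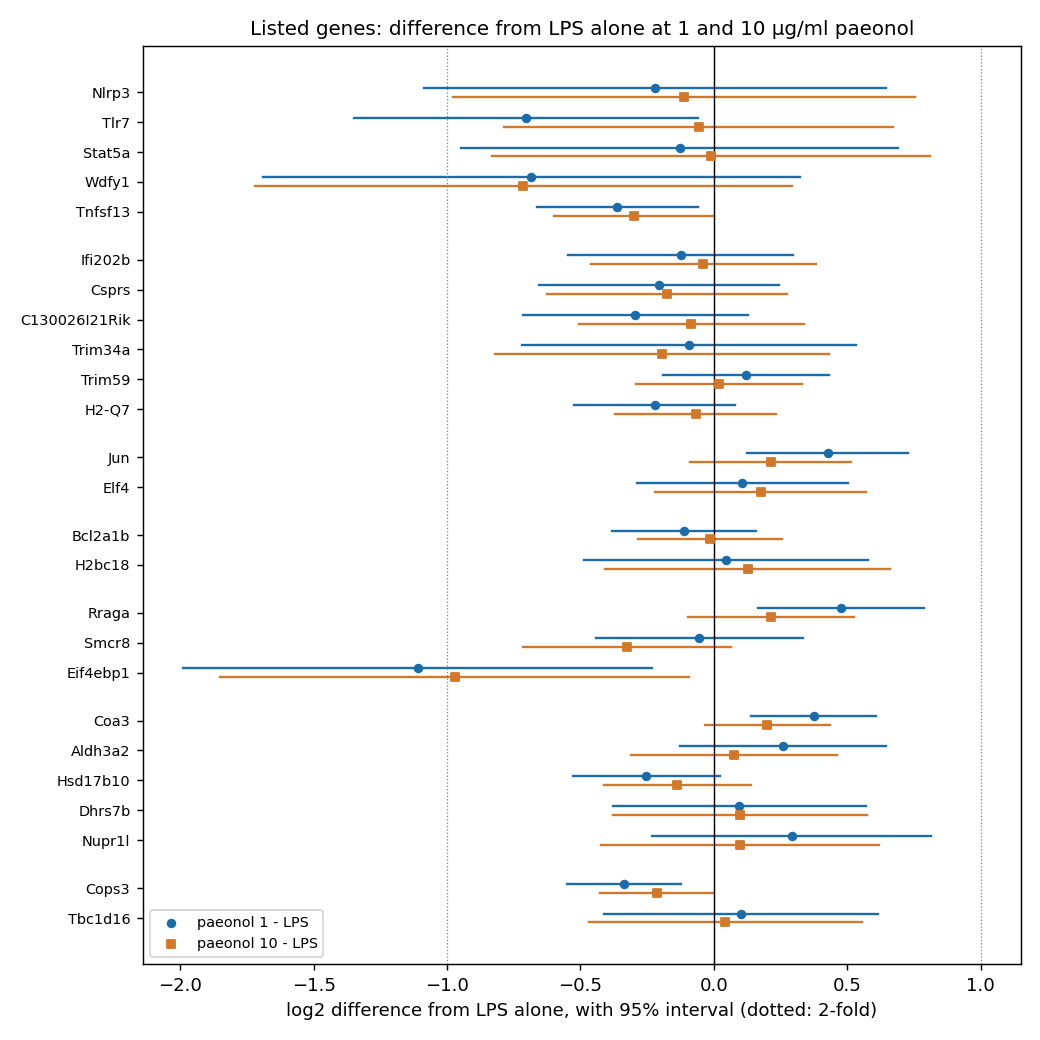
Log2 difference from LPS alone (horizontal axis) with its 95% interval at 1 µg/ml (blue circles) and 10 µg/ml (orange squares) paeonol. Dotted lines mark a 2-fold difference. Rows are grouped by role, from innate sensing at the top to protein turnover at the bottom. Shown are tested genes of the innate sensing, interferon, transcription factor, survival, nutrient, mitochondrial and protein turnover lists. Of these lists Cebpb, Sox11, Cdc42ep1, Fxr2 and Jmjd4 are left out. Genes found only in the lists of LPS-raised and LPS-lowered genes, receptors, zinc finger proteins and histones are not shown. The intervals are unadjusted, and Eif4ebp1 and H2bc18 were undetected on most of the arrays. Most span 0, and all but those of Nlrp3, Tlr7, Wdfy1 and Eif4ebp1 lie within 2-fold at both doses.

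The plot of intervals shows what differences the 9 arrays leave room for. Over all tested probes the 95% interval lay within 2-fold in both directions for 56.3% at 1 µg/ml, 58.4% at 10 µg/ml and 64.1% pooled, and for 104, 109 and 115 of the 181 named probes. For the others the interval reached 2-fold or beyond, so the lack of a call does not show that they were unchanged.

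The interferon-inducible and tripartite motif genes stayed close to LPS alone. Limma called 0 of the 6 tested of 12 listed, and their differences ran from -0.30 to 0.12 at 1 µg/ml and from -0.19 to 0.02 at 10 µg/ml. Ifi202b, a DNA-binding interferon-activated gene, measured 15.19, 15.74 and 14.96 in vehicle, 19.63, 20.24 and 20.01 with LPS, 19.87, 19.73 and 19.91 with 1 µg/ml paeonol and 19.76, 20.17 and 19.83 with 10 µg/ml. The 9 LPS-treated arrays overlapped with one another and lay more than 3 above vehicle on the log2 scale. The difference from LPS alone was -0.12 ± 0.203 (95% interval -0.55 to 0.30) at 1 µg/ml and -0.04 ± 0.203 (-0.46 to 0.38) at 10 µg/ml, so a 2-fold change lay outside both intervals.

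Trim34a, of the tripartite motif family, measured 13.44, 13.94 and 13.61 with LPS alone, 13.59, 13.33 and 13.78 with 1 µg/ml and 13.27, 13.83 and 13.31 with 10 µg/ml. In vehicle 1 of 3 arrays detected it. The differences from LPS alone were -0.09 ± 0.300 and -0.19 ± 0.300. Csprs differed by -0.20 ± 0.216 and -0.18 ± 0.216, C130026I21Rik by -0.30 ± 0.202 and -0.08 ± 0.202, and H2-Q7, a non-classical class I antigen, by -0.22 ± 0.144 and -0.07 ± 0.144. Trim59, which was lower with LPS than in vehicle, differed by 0.12 ± 0.149 and 0.02 ± 0.149.

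Shbg, sex hormone-binding globulin, measured 12.34, 11.54 and 12.73 with LPS alone, 12.05, 11.92 and 12.20 with 1 µg/ml and 12.17, 11.42 and 12.06 with 10 µg/ml, and was detected on no vehicle array. Its differences were -0.14 ± 0.207 (95% interval -0.57 to 0.29) and -0.32 ± 0.207 (-0.75 to 0.12), not called. Bcl2a1b, an anti-apoptotic member of the Bcl-2 family, differed by -0.11 ± 0.130 and -0.01 ± 0.130 from an LPS mean of 20.07. The transcription factor Cebpb differed by -0.04 ± 0.174 and 0.08 ± 0.174 on its brighter probe. Its dimmer probe gave -0.55 ± 0.670 and -0.14 ± 0.670, so the probes differ in size and, at 10 µg/ml, in sign.

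**Figure D4:**
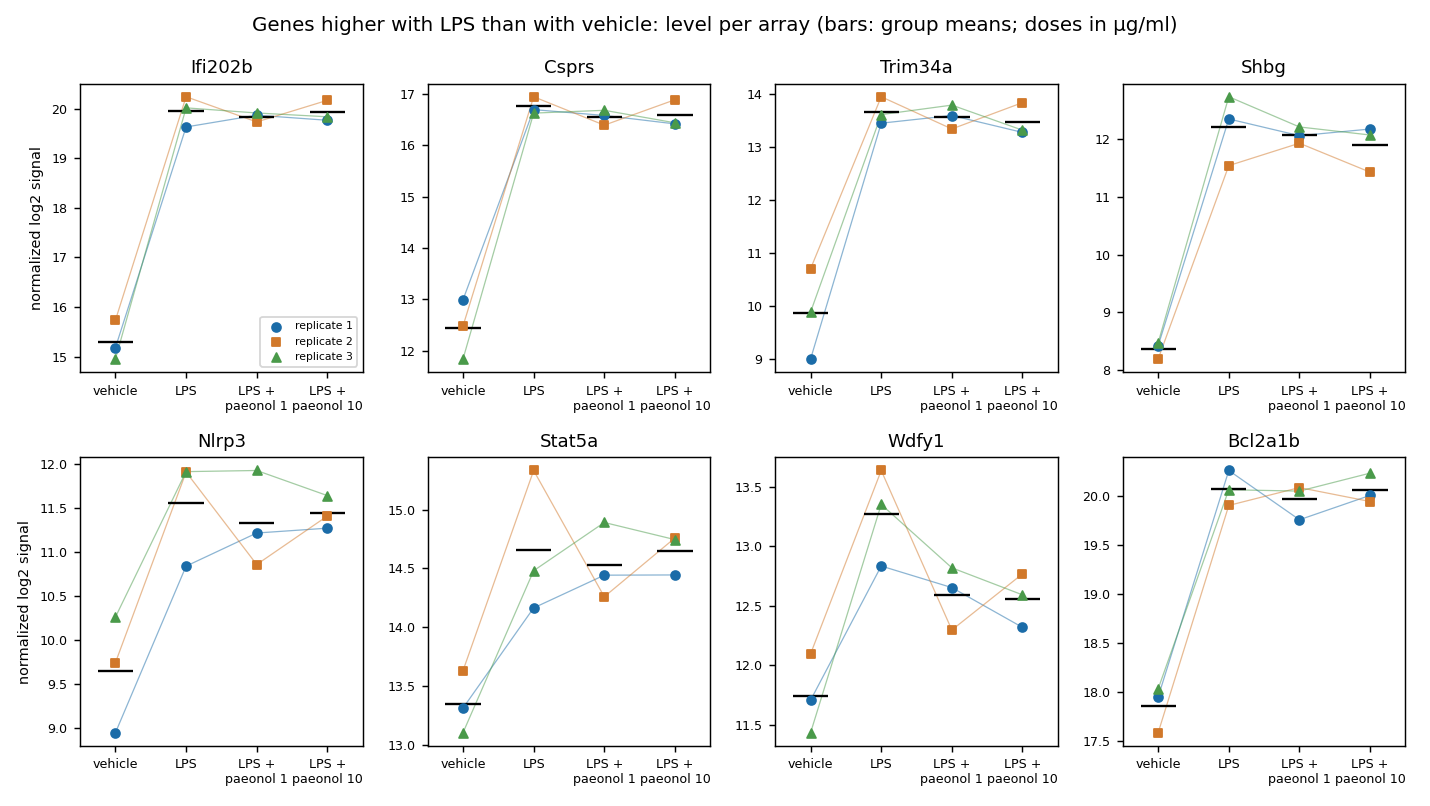
Normalized log2 signal (vertical axes, separate scale for each gene) of 8 genes whose 3 LPS arrays lie above the 3 vehicle arrays, in vehicle, LPS, LPS with 1 µg/ml and LPS with 10 µg/ml paeonol; points are arrays, lines join arrays of 1 replicate number and black bars are group means. The paeonol arrays overlap the LPS arrays for Ifi202b, Csprs, Trim34a, Shbg, Nlrp3, Stat5a and Bcl2a1b, and lie between LPS and vehicle for Wdfy1.

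The plot of the LPS-responsive genes shows the size of the LPS step beside that of the paeonol differences. Taken as a list, 16 probes of 15 named genes that had been picked earlier on these same arrays as higher with LPS had a median difference of -0.16 at 1 µg/ml and -0.11 at 10 µg/ml, with ranges of -0.68 to 0.04 and -0.71 to 0.08. Sowahc differed by -0.26 ± 0.260 and -0.37 ± 0.260, and Amigo3 by -0.17 ± 0.425 and -0.00 ± 0.425. The 10 picked as lower with LPS had medians of 0.19 and 0.11. Limma called 0 of either list at either dose. Both lists were chosen with the LPS arrays that serve here as the reference, so an LPS value far from vehicle also sets the paeonol difference the other way, and the direction of these medians is not independent evidence.

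Of the genes lower with LPS, Nanos1, a germ-cell repressor of translation, measured 9.88, 9.18 and 8.60 with LPS alone, 11.03, 9.39 and 10.57 with 1 µg/ml and 10.48, 8.74 and 10.35 with 10 µg/ml. It was detected on 0 of 3 LPS arrays and on 2 of 3 and 1 of 3 paeonol arrays, against 12.17, 12.41 and 12.27 in vehicle. Frat2, an activator of Wnt signalling that binds the kinase GSK-3, reached 12.37 on paeonol 10 replicate 1, and 1 of the 9 arrays detected it. For a probe not detected in a group, its measured level there was taken as an upper bound, or the array's lowest detected signal where that was higher. A fold against that level is written as at least that much. Such a fold lies at or near the fitted difference and takes no account of the error, so a smaller true fold is possible. By that bound Nanos1 was higher at 1 µg/ml by at least 2.16-fold (limma adjusted p = 0.408), and within the set of 23 arrays it differed by 0.45 ± 0.826. Frat2 was higher at 10 µg/ml by at least 6.00-fold (limma adjusted p = 0.645), a value that rests on 1 array, and neither was called. Ikbip, which binds the IκB kinase IKKβ, differed by 0.54 ± 0.240 and 0.32 ± 0.240.

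Of the 7 listed genes of nutrient sensing and translation, 3 were tested and 0 called. Beside Rraga, these were Eif4ebp1, the repressor of cap-dependent translation that mTOR inactivates, and Smcr8, a partner of C9orf72 in autophagy. Eif4ebp1 measured 9.17, 9.71 and 7.94 with LPS alone, 8.59, 7.37 and 7.53 with 1 µg/ml and 7.89, 8.37 and 7.64 with 10 µg/ml, and was detected on 2 of the LPS arrays and on none with paeonol. It was at least 2.16-fold lower at 1 µg/ml and at least 1.89-fold lower at 10 µg/ml (limma adjusted p = 0.367 at 1 µg/ml), not called, and not detected on any vehicle array either. Smcr8 differed by -0.05 ± 0.186 and -0.33 ± 0.186.

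Of the 8 listed genes of mitochondria and dehydrogenases, chosen with earlier results of these data known, 5 were tested and 0 called. Their median difference was 0.26 at 1 µg/ml and 0.10 at 10 µg/ml, beside 0.02 and -0.01 for all tested probes. Beside Coa3, the fatty aldehyde dehydrogenase Aldh3a2 differed by 0.26 ± 0.185 and 0.08 ± 0.185, and the mitochondrial dehydrogenase Hsd17b10 by -0.25 ± 0.132 and -0.14 ± 0.132. The reductase Dhrs7b differed by 0.10 ± 0.228 at each dose, and Nupr1l by 0.29 ± 0.251 and 0.10 ± 0.251. The mitochondrial valyl-tRNA synthetase Vars2, which is on no list, measured 10.92, 11.81 and 11.90 with LPS alone, 11.02, 10.69 and 11.02 with 1 µg/ml and 10.87, 10.79 and 10.72 with 10 µg/ml. The lower values stood against LPS replicates 2 and 3: the differences were -0.63 ± 0.334 and -0.75 ± 0.334 over all arrays and 0.10 ± 0.397 and -0.02 ± 0.397 within the set of 23 arrays.

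Of the 9 listed transcription factors, Jun, Cebpb, Elf4 and Sox11 were tested, none called. The ETS factor Elf4 differed by 0.11 ± 0.190 and 0.18 ± 0.190. Of the 6 listed genes of protein degradation and trafficking, chosen with earlier results of these data known, 5 were tested and 0 called. Their medians were -0.31 and -0.21, beside 0.02 and -0.01 for all tested probes. Cops3 was among them, as was the Cdc42 effector Cdc42ep1, detected on 2 of 3 LPS arrays, 0 of 3 at the lower dose and 1 of 3 at the higher. It was lower by at least 2.66-fold at 1 µg/ml (limma adjusted p = 0.391), not called, and within the set of 23 arrays it differed by -0.56 ± 0.545. The Rab GTPase-activating protein Tbc1d16 differed by 0.10 ± 0.246 and 0.04 ± 0.246.

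Several of the named genes that ranked first at the higher dose had low signals. Olfr347 and Olfr921, odorant receptors, were detected on 0 of 3 LPS arrays and 2 of 3 at 10 µg/ml, and were at least 2.57-fold and 2.45-fold higher. Over the 11 odorant and vomeronasal receptor probes tested, the median difference was 0.02 at 1 µg/ml and 0.03 at 10 µg/ml, and 0 were called. Zfp146, a zinc finger protein, measured 11.81, 11.77 and 12.66 with LPS alone and 11.67, 10.91 and 11.76 with 10 µg/ml, groups that do not overlap. It differed by -0.34 ± 0.270 at 1 µg/ml and -0.63 ± 0.270 at 10 µg/ml. Fmr1nb differed by -0.44 ± 0.277 and -0.62 ± 0.277, lower in 6 of 6 pairs. Hba-a1 was at least 2.24-fold lower at 10 µg/ml, and Wars2, the mitochondrial tryptophanyl-tRNA synthetase, differed by 1.35 ± 0.673, none of them called (limma adjusted p from 0.645 to 1.00 over the named genes at this dose).

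The difference between the doses does not take the LPS arrays as its reference, although they are part of the same fit. Limma called 0 of 19166 probes between 10 and 1 µg/ml (0%), with a smallest adjusted p of 0.699. At an unadjusted p under 0.05, 293 probes were higher at 10 µg/ml and 563 lower (1.53% and 2.94%), and 1 and 7 of the named. The gene 9130023H24Rik had the smallest p of the named, with 11.30, 10.89 and 11.71 at 1 µg/ml against 10.62, 10.58 and 10.10 at 10 µg/ml, where 1 of 3 arrays detected it. The groups did not overlap, and the difference was -0.87 ± 0.220 (limma adjusted p = 0.727), not called. Mos, a kinase of oocyte maturation, measured 10.97, 10.45 and 10.20 at 1 µg/ml and 9.07, 10.83 and 8.13 at 10 µg/ml, where 1 of 3 arrays detected it. Its difference of -1.20 ± 0.416 was not called. Without paeonol 10 replicate 2, the array on which it was high, the difference was -1.98 (limma adjusted p = 0.0236).

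Of other named genes, Unkl, a relative of the RNA-binding protein Unkempt, differed between the doses by -0.37 ± 0.129. The SNARE protein Snap47 differed by -0.28 ± 0.115, H2bc13 by -0.36 ± 0.169 and Tceal9 by -0.22 ± 0.105. None of these was called. Toward the higher side, Lst1 differed by 0.41 ± 0.199 and Tlr7 by 0.65 ± 0.348, each from 2 arrays at 10 µg/ml. Fpr-rs6, a formyl peptide receptor relative, differed by 0.83 ± 0.495, and the RNA helicase Ddx28 by 0.15 ± 0.116. The size of the difference from LPS was smaller at 10 than at 1 µg/ml for Gnl2, Coa3, Rraga, Jun, Cops3 and Lgals1. These genes were picked for their small p at 1 µg/ml, so that order of sizes is not independent of the choice. For none of these 6 was the dose difference called (limma adjusted p = 1.00 for each).

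Most probes near the top of each comparison have no gene name here and are given by probe number. At 1 µg/ml, probe 630140 lay between 11.56 and 12.02 with LPS alone and 12.98, 13.11 and 12.57 with paeonol, a difference of 1.02 ± 0.201 (limma adjusted p = 0.188), and probe 596226 differed by 0.56 ± 0.110. On the lower side probe 892215 measured 16.21, 16.31 and 16.10 with LPS alone and 15.51, 15.93 and 15.67 with paeonol, a difference of -0.50 ± 0.104. All 3 kept their direction in 6 of 6 pairs and were detected on all 9 arrays. Probe 337442, undetected at 1 µg/ml, was lower there by at least 3.90-fold. Other dim probes led the comparison at 10 µg/ml. Of these, 626399 and 660788 were undetected with LPS alone and at least 4.08-fold and 4.32-fold higher. Probes 695790 and 853720 were undetected at 10 µg/ml and at least 4.07-fold and 2.78-fold lower. Probe 853720 was detected on 1 array at 1 µg/ml. Pooled, probe 766676 differed by 1.13 ± 0.230 and probe 305590 by 1.60 ± 0.316. Between the doses probe 891943 differed by 1.90 ± 0.468 and probe 658561 by -1.11 ± 0.234. For the last comparison probe 434589, undetected at 1 µg/ml, was higher by at least 2.48-fold, and probe 311624, undetected at 10 µg/ml, at least 4.39-fold lower. Paeonol 10 replicate 3 is missing for probes 305590, 626399 and 434589, and LPS replicate 3 is also missing for 626399. Of the unnamed probes given here none was called with equal array weights and all arrays kept. The calls made with array weights include probes 305590, 596226 and 892215 (limma adjusted p = 0.0223 for each), 630140 (0.0295) and 337442 (0.0311) at 1 µg/ml. Pooled they include the same 5 and 660788, 695790 and 766676 (limma adjusted p = 0.0318 for each of the 8).

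Detection was compared as well. From 3 of 3 LPS arrays to none with paeonol went 73 tested probes at 1 µg/ml and 108 at 10 µg/ml, and 23 were detected on none of the 6 paeonol arrays. From 0 of 3 LPS arrays to 3 of 3 went 27 and 8, and 1 probe was detected on all 6. None of those at a given dose was named or called. The share of detected probes moves with these counts: it was 46.6%, 48.8% and 44.8% on the LPS arrays, 45.9% to 46.4% at 1 µg/ml and 43.1%, 45.4% and 42.3% at 10 µg/ml, and its part in them was not tested.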

How the data were processed

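Per the labels' protocols, RNA carried a digoxigenin label read by chemiluminescence on one-colour arrays. The deposited scanner tables give an intensity on a linear scale, not normalized between arrays, a signal-to-noise score and a quality flag per spot, per the file headers. The authors' deposited table of processed log2 values served as an alternative; how it was normalized is not given in the sources used here. Probe names came from RefSeq accessions and symbols of GRCm38.p6, used for names alone: names were found for 311 of 517 RefSeq and 6 of 337 GenBank identifiers, and for none of the 27930 Celera ones.

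From there, the 303 control spots were left out, spots with a flag above 5000 were set missing, and 30 arrays (all but paeonol 100) were quantile normalized, floored at the 5th percentile (164.5) and taken to log2. Of the 19166 probes tested, 1674 had a missing value. The 10 groups entered 1 linear model in limma 3.58.1 (R 4.3.3; lmFit, eBayes, 2-sided) with the replicate number as a block, and probes were called at a Benjamini-Hochberg adjusted p under 0.05, taken over all tested probes of a comparison. The files hold no counts, so precision is limited by how many arrays there are.

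The comparison is defined as paired by replicate number, and arrays of one number share a scan day. The correlation of the deviations of same-numbered arrays was -0.109, -0.183 and 0.185 for LPS with paeonol 1 and 0.0387, 0.105 and 0.132 with paeonol 10. For arrays of different number it ran from -0.316 to 0.363 with paeonol 1 and from -0.244 to 0.134 with paeonol 10. The same-numbered values lie within those ranges.

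The text names, per comparison and direction, the 6 named genes with the smallest p that were detected on at least 2 of 3 arrays of the higher group (4 of 6 pooled), the tested members of the lists and up to 2 unnamed probes. Of 124 listed symbols, 42 were named on the array and 40 tested. The members and lists were chosen with earlier results of these data known. The alternatives were the normalization, filters, floor, flags, block, array weights, prior trend, array set and each array left out. The fit was tested on simulated data.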

Additional observations from a re-analysis of the deposited data

How the results depend on the processing

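Each comparison was recomputed under up to 23 alternatives, 3 of them, on the array sets, chosen after seeing the data. Limma called 0 probes in all 4 comparisons except with array weights, which called 151 at 1 µg/ml (90 higher, 61 lower) and 71 pooled (37 and 34), none of them named, and with 1 array left out. Leaving out arrays in turn gave 0 to 4 calls at 1 µg/ml, 0 to 3 at 10 µg/ml, 0 to 2 pooled and 0 to 2 between the doses. At 1 µg/ml the calls were 4 without LPS replicate 1 and 1 without LPS replicate 2, and at 10 µg/ml 3 without paeonol 10 replicate 2 and 1 without its replicate 1. Pooled they were 1 without LPS replicate 1 and 2 without paeonol 10 replicate 2, and between the doses 1 without paeonol 1 replicate 3 and 2 without paeonol 10 replicate 1 or replicate 2. Among the 9 arrays compared, the weights ran from 0.351 for paeonol 1 replicate 2 to 1.90 for LPS replicate 1, and the part of the weights in the calls was not tested. The same-numbered arrays were paired by scan day. Without the replicate block limma called 0 probes in each comparison, and the probes at an unadjusted p under 0.05 numbered 1209 in place of 2022 at 1 µg/ml, 546 in place of 805, 906 in place of 1496 pooled and 571 in place of 856 between the doses. That count at 1 µg/ml was 1343 without LPS replicate 3, 3516 with array weights and 455 within the set of 23 arrays. Pooled it was 932 without LPS replicate 2, 901 without LPS replicate 3, 2313 with no detection filter and 2911 with weights. At 10 µg/ml it was 1769 with no filter and 1468 with weights, and between the doses 1577 and 1447. Median normalization moved the median of all probes to -0.07 at 1 µg/ml, -0.11 at 10 µg/ml and -0.09 pooled. With it 475 probes were higher and 1047 lower at 1 µg/ml, 31.2% higher in place of 58.5%, so that split depends on the scaling, and pooled 26.9% were higher in place of 52.2%. Gnl2 then differed by 0.22 and 0.06 at 1 and 10 µg/ml, Coa3 by 0.20 and 0.03, Rraga by 0.33 and 0.04, Cops3 by -0.46 and -0.36. Of 5240 recomputed values of named genes 1 was called, Mos between the doses, and 252 had the other sign. Of 123 differences of at least 0.25 in size, 14 changed sign under some alternative. The file headers give scan days but no array batch, so the planned fits with a batch from the headers were not run, and the sets of the control spots were used in their place. With 3 arrays a group the median standard error of 0.253 to 0.294 limits what could be called. The folds written as at least a value for dim probes take no account of the error.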
